A study of Arabidopsis thaliana with 4 samples.

Results

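CCA1, LHY and RVE6 are transcription factors of the plant circadian clock, and their transcript levels were compared between flc-3 seedlings and wild-type seedlings of Arabidopsis thaliana. The 3 genes were taken as 3 probe sets of the 22746 on the array that are not controls, each chosen by its identifier, with no threshold on its values: 266719_at for CCA1 (AT2G46830), 261569_at for LHY (AT1G01060) and 248328_at for RVE6 (AT5G52660). The platform annotation used here pairs 248328_at with AT5G52660. It holds no gene for the other two probe sets, whose names come with the choice of genes and were not checked against the annotation. In the gene table of the TAIR10.1 assembly, CCA1 lies on chromosome 2, LHY on chromosome 1 and AT5G52660, which carries no symbol there, on chromosome 5.

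Both genotypes are in the Col-0 background, with 2 ATH1 arrays each. The labels of flc-3 give it as a gene knockout at AT5G10140, the locus of the MADS-box floral repressor FLC, and those of the wild type name the alleles FRI and FLC. Titles of the mutant arrays write fri in lower case, so the FRI allele of the mutant is not settled by the labels. Whole seedlings of both genotypes grew on agar with sucrose for 6 days in constant light, and were then entrained at 22 °C for 4 days with 12 h of light and 12 h of darkness each day. At the end of entrainment they went into constant light at 27 °C. RNA taken 24, 30, 36 and 42 h after that change was pooled in equal amounts into 1 sample per array. Every value is thus a mean level over 4 circadian times. The time of the daily peak, its height and the period cannot be read from it. Because the same 4 times were pooled in both genotypes, a shift in timing cannot be told apart from a change in level. A whole seedling mixes many cell types, and fewer cells that express a gene cannot be told apart from less RNA per cell.

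The clock of Arabidopsis is a network of transcription factors that repress and activate one another in turn over the day. CCA1 (CIRCADIAN CLOCK ASSOCIATED 1) and LHY (LATE ELONGATED HYPOCOTYL) are closely related proteins with a single MYB DNA-binding repeat. Their transcripts peak around dawn, and they repress genes that are expressed towards evening, among them TOC1 and GI, while pseudo-response regulators repress CCA1 and LHY later in the day. RVE6 belongs to the same MYB family, REVEILLE, but to the branch around RVE8, whose members activate evening genes. FLC itself has been linked to the length of the circadian period, and the title of the series asks for its targets at the warm temperature.

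None of the 3 clock MYB transcripts passed an adjusted p of 0.05 in limma between flc-3 and the wild type. Mean levels were 0.986-fold for CCA1, 0.85-fold for LHY and 1.07-fold for RVE6 in flc-3 relative to the wild type, from differences in log2(signal + 1). The same fit called 239 of 13648 tested probe sets, 1.75%, with 197 higher in flc-3 (1.44%) and 42 lower (0.308%), so 0 of 3 genes is no departure from the background. The count of 239 was 146 with flc-3 replicate 1 left out and 374 with wild type replicate 1 left out. At an unadjusted p under 0.05, 0 of the 3 passed as well, against 12.1% of all tested probe sets.

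CCA1, one of the paired dawn repressors, had MAS5 signals of 106 and 114 in the flc-3 arrays, against 108 and 115 in the wild-type arrays. The genotypes overlapped, and in each the lower signal was that of replicate 1. CCA1 averaged 110 ± 5.63 in flc-3 and 112 ± 4.95 in the wild type (SD, n = 2 arrays each). The log2 difference was -0.02 ± 0.12 (SE), with a 95% interval of -0.29 to 0.25, which is 0.818-fold to 1.19-fold (limma adjusted p = 0.969). An exact permutation test over the 4 arrays gave p = 0.667, and the smallest p that 2 arrays against 2 allow is 0.333. Of all tested probe sets, 8.53% had a smaller difference between the genotypes than CCA1. The sign of this small difference rested on single arrays: leaving out flc-3 replicate 1 gave 0.03, and leaving out wild type replicate 2 gave 0.02.

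LHY, the partner of CCA1, had signals of 131 and 155 in the flc-3 arrays, against 168 and 168 in the wild-type arrays. Both flc-3 arrays lay below both wild-type arrays, with replicate 1 of flc-3 the lowest. LHY averaged 143 ± 16.5 in flc-3 and 168 ± 0.674 in the wild type (SD, n = 2 arrays each). The log2 difference was -0.23 ± 0.12 (SE), with a 95% interval of -0.50 to 0.03, or 0.707-fold to 1.02-fold, and it did not pass (limma unadjusted p = 0.0774, adjusted p = 0.469). The exact permutation test gave p = 0.333, its smallest possible value. Signals lay apart in this way, with flc-3 lower, in 22.8% of all tested probe sets, and with either genotype lower in 43.0%. Of all tested probe sets, 76.2% had a smaller difference in size than LHY. The size of the difference depended on the flc-3 arrays, at -0.12 with replicate 1 left out and -0.35 with replicate 2 left out. A control for 25S ribosomal RNA, left out of all comparisons, read 1426 in flc-3 replicate 1 and 45.7 in flc-3 replicate 2, against 135 and 47.6 in the wild-type arrays. The array with the lowest LHY signal was thus also the one with the highest ribosomal RNA signal, and the part of this in the LHY result was not tested.

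RVE6, from the activating branch of the family, had signals of 92.9 and 91.0 in the flc-3 arrays, against 78.6 and 93.2 in the wild-type arrays. The flc-3 signals lay between the wild-type signals, and wild type replicate 1 was the lowest of all. RVE6 averaged 92.0 ± 1.38 in flc-3 and 85.9 ± 10.3 in the wild type (SD, n = 2 arrays each). The log2 difference was 0.10 ± 0.14 (SE), with a 95% interval of -0.21 to 0.41, or 0.867-fold to 1.33-fold (limma adjusted p = 0.825, exact permutation test p = 1.0). Without wild type replicate 1 the difference was -0.02, so its direction came from that array.

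**Figure D1:**
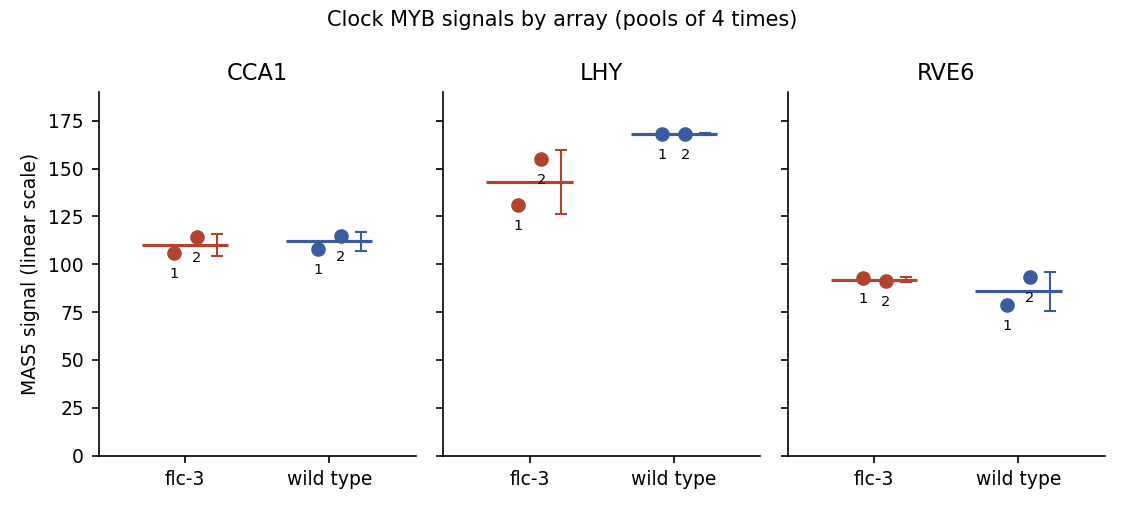
MAS5 signal on a linear scale (vertical axis) of CCA1, LHY and RVE6 in each array, with flc-3 left of the wild type; points are arrays marked with their replicate number, horizontal lines are means and error bars are SD (n = 2). CCA1 and RVE6 overlap between genotypes, and the LHY signals of 131 and 155 in flc-3 lie below 168 in both wild-type arrays; heights of different probe sets are not comparable.

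The signals of the 3 probe sets were well inside the range of the array, and none was near the filter on dim probe sets, the 40th percentile of mean signal. Across the 4 arrays, CCA1 lay between the 71.0 and 73.5 percentile of signals, LHY between 76.5 and 82.1, and RVE6 between 63.4 and 67.7. These percentiles place each probe set on the array and do not order the transcripts by abundance, because probe sets differ in how brightly they hybridise.

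For each of the 3 genes, arrays of at least 1 genotype differed from each other by about as much as the genotypes did, or by more. In CCA1 the log2 gap between replicate 1 and replicate 2 was -0.10 in flc-3 and -0.09 in the wild type, both larger in size than its genotype difference. In LHY the gap was -0.23 in flc-3 and 0.01 in the wild type, so the flc-3 arrays differed from each other by as much as the genotypes did. Only 2.73% of tested probe sets had a smaller gap between the wild-type arrays than LHY, while 77.9% had a smaller gap between the flc-3 arrays. In RVE6 the pattern was the other way round, with a gap of 0.03 in flc-3 and -0.24 in the wild type. Over all tested probe sets, the median size of the gap was 0.12 in flc-3 and 0.16 in the wild type, and the median size of the genotype difference was 0.13.

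**Figure D2:**
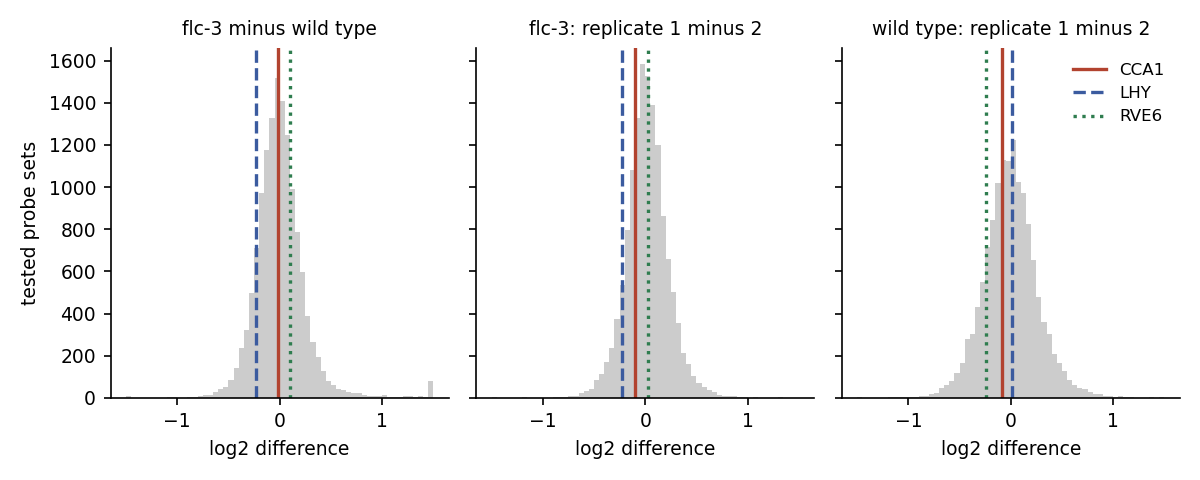
Distribution over all tested probe sets (vertical axis, number of probe sets) of the log2 difference of flc-3 minus wild type, and of replicate 1 minus replicate 2 within flc-3 and within the wild type; values beyond 1.5 in size are gathered in the end bins, and vertical lines mark CCA1, LHY and RVE6. The LHY line stands at -0.23 both between genotypes and between the flc-3 arrays, and the RVE6 line at -0.24 between the wild-type arrays.

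The range over all 4 arrays separates the genes a little further. The highest signal was 1.08 times the lowest for CCA1, 1.28 times for LHY and 1.19 times for RVE6. A narrower range than that of CCA1 was seen in 6.02% of tested probe sets, than that of RVE6 in 31.7% and than that of LHY in 57.4%. CCA1 thus varied less over these pools than most tested probe sets did.

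The 95% intervals give what these arrays could still hide. A change of 2-fold in either direction in the mean level over the pooled times lay outside the interval of each gene. With the spread estimated here, a difference would have had to reach 0.57 on the log2 scale for CCA1 and for LHY, and 0.65 for RVE6, to pass among all tested probe sets. Those are folds of 1.49, 1.48 and 1.57. They are cut-offs on the estimated difference, not limits on the true difference that this number of arrays could detect.

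**Figure D3:**
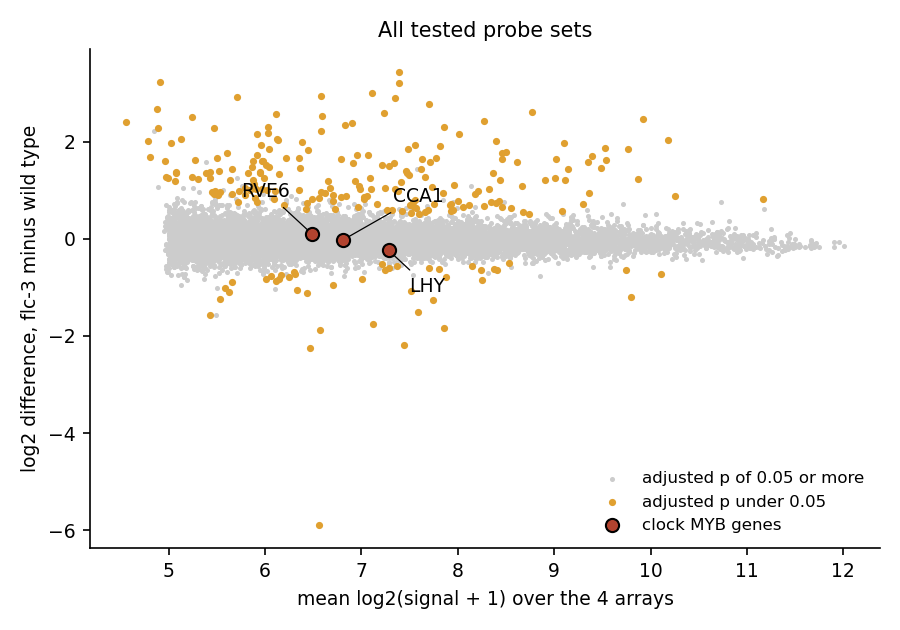
Log2 difference of flc-3 minus wild type (vertical axis) against the mean log2(signal + 1) over the 4 arrays (horizontal axis) for the 13648 tested probe sets, with the 239 called ones in orange and CCA1, LHY and RVE6 in red. All 3 lie within the grey band of probe sets that did not pass.

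CCA1 and LHY act as a pair with overlapping function, so their changes were also compared with each other and with that of RVE6. The change in flc-3 was 0.21 higher on the log2 scale for CCA1 than for LHY; for LHY minus RVE6 the difference of changes was -0.34, and for CCA1 minus RVE6 it was -0.12. Within each array, the log2 signal of CCA1 minus that of LHY was -0.30 and -0.43 in flc-3, against -0.63 and -0.53 in the wild type. Those values did not overlap between genotypes and were higher in both flc-3 arrays. For LHY minus RVE6 they were 0.50 and 0.76 in flc-3, against 1.09 and 0.84 in the wild type, which also did not overlap. Both pairs contain LHY, whose own signals lay apart, as did those of 43.0% of all tested probe sets. The share over all pairs of probe sets was not computed. Over the 3 pairs compared, exact permutation tests gave p = 0.333 for both pairs with LHY and 0.667 for CCA1 with RVE6. After Benjamini-Hochberg adjustment these were 0.5, 0.5 and 0.667. The smallest p that the exact test allows here is 0.333, so it could not pass, and no other test of unequal change was made.

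Among their relatives, the REVEILLE family list holds 11 genes, and 4 of them, the 3 described above and RVE5 (AT4G01280), have a probe set that could be named. RVE5 is a further member of the RVE8 branch. Its signals were 121 and 123 in flc-3, against 111 and 104 in the wild type, with both flc-3 arrays above both wild-type arrays, as in 20.2% of all tested probe sets. The log2 difference of RVE5 was 0.18 ± 0.12 (SE; limma adjusted p = 0.592). Of the 4 tested family genes, 0 passed in either direction in limma, against 1.75% of all tested probe sets, and 0 had an unadjusted p under 0.05, against 12.1%. With 4 genes these counts do not depart from the background. The median log2 difference of the 4 was 0.04, against -0.01 over all tested probe sets. The 2 dawn repressors had differences below 0 and the 2 genes of the RVE8 branch above 0, with every one of the 4 intervals including 0. Of these signs, those of CCA1 and RVE6 turned when single arrays were left out, as given above.

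The wider clock was covered by 4 of 31 listed genes, and none passed in limma over all tested probe sets. GI, an evening gene that the clock MYB factors bind and regulate, had signals of 119 and 109 in flc-3, against 97.2 and 113 in the wild type, which overlapped (log2 difference 0.12 ± 0.13, SE; limma adjusted p = 0.762). TIC, a clock regulator that acts on LHY expression, had signals of 265 and 287 in flc-3, against 282 and 311 in the wild type (log2 difference -0.10, limma adjusted p = 0.755). XCT, a nuclear protein needed for normal period, had signals of 44.0 and 39.1 in flc-3, against 43.2 and 43.6 in the wild type, which overlapped (log2 difference -0.06, limma adjusted p = 0.922).

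FIO1, whose loss lengthens the circadian period, was the 1 clock gene of 4 with an unadjusted p under 0.05, which 12.1% of all tested probe sets had. Its signals were 47.4 and 42.0 in flc-3, against 28.2 and 21.1 in the wild type. Both flc-3 arrays were higher, as in 20.2% of all tested probe sets. All of these signals lay below the medians of their arrays, 48.5 and 47.1 in flc-3 and 47.2 and 47.3 in the wild type. With flc-3 replicate 1 left out, FIO1 fell below the filter on mean signal and was not tested. Its place among the tested probe sets thus depended on its flc-3 signals. The log2 difference of FIO1 was 0.85 ± 0.20 (SE), with a 95% interval of 0.39 to 1.3, and it missed the threshold over all tested probe sets (limma adjusted p = 0.0871). FIO1 passed when wild type replicate 1 was left out. The median log2 difference of the 4 clock genes was 0.03, against -0.01 over all tested probe sets.

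Of 21 listed targets and outputs of the clock MYB factors, only RCA, which encodes Rubisco activase, could be named and tested. RCA signals were 2170 and 2960 in flc-3, against 2960 and 2670 in the wild type, and the log2 difference was -0.15 ± 0.20 (SE; limma adjusted p = 0.825). The lowest RCA signal was that of flc-3 replicate 1, the array in which CCA1 and LHY were also lowest. TOC1, PRR9, LUX, ELF3, ELF4 and CAT3, further clock and output genes, have no named probe set here and were not analysed.

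**Figure D4:**
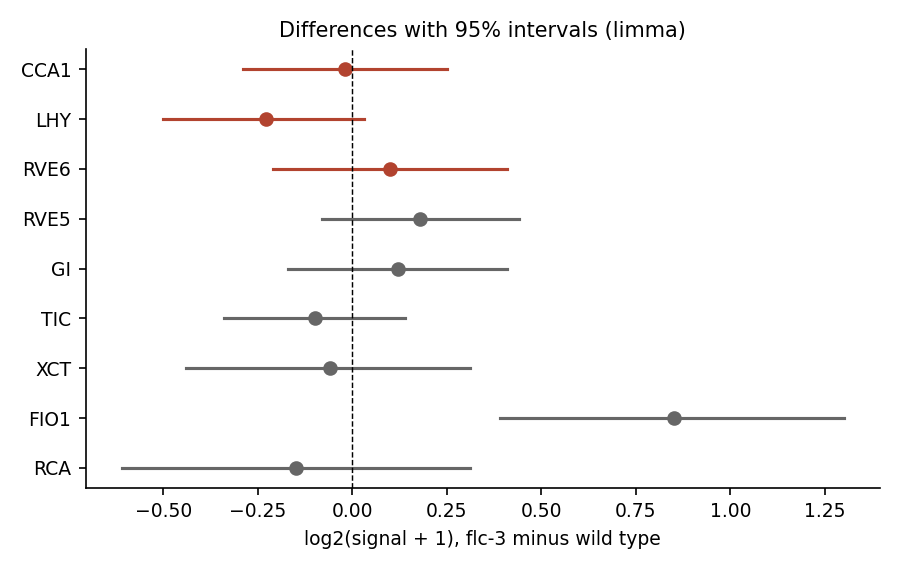
Log2 difference of flc-3 minus wild type (horizontal axis) with its 95% limma interval for CCA1, LHY and RVE6 in red and for the other tested genes of the REVEILLE, clock and output lists in grey. Every interval except that of FIO1 includes 0. FIO1 did not pass over all tested probe sets (limma adjusted p = 0.0871), and its place among them depended on its flc-3 signals.

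The probe sets whose signals moved most like those of each gene over the 4 arrays were found by Euclidean distance between log2 values centred on each probe set's own mean. For CCA1 the nearest with a named locus were AT5G41970 at a distance of 0.01, and AT1G64710 and AT4G20300 at 0.02. For LHY they were AT2G37600, AT4G16750 and AT4G01730, each at 0.03. AT2G37600 had signals of 198 and 231 in flc-3, against 257 and 255 in the wild type, and flc-3 replicate 1 was lowest, as for LHY. For RVE6 they were AT4G17960 at 0.01, and AT5G09880 and AT1G72410 at 0.02. At a wider distance of 0.1, 732 of the other 13647 tested probe sets, 5.36%, lay around CCA1, 440 (3.22%) around RVE6 and 171 (1.25%) around LHY.

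The clock MYB genes were not among the nearest probe sets of one another by this measure. LHY stood at 0.24 from CCA1, and 43.5% of tested probe sets were closer to CCA1 than LHY was, while 19.0% were closer to LHY than CCA1 was. RVE6 stood at 0.19 from CCA1, with 26.8% closer to CCA1 and 17.4% closer to RVE6. LHY and RVE6 stood at 0.42, with 63.3% closer to LHY and 74.2% closer to RVE6.

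The annotation pairs no probe set with the targeted gene FLC, so its level was not used to check the genotype labels. Median signals of the arrays were 48.5 and 47.1 in flc-3 and 47.2 and 47.3 in the wild type. The labels do not say whether the 2 arrays of a genotype came from separate cultures, and the p-values cover no more than the variation among these 4 arrays, part or all of which may be technical.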

How the data were processed

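Transcripts were measured on 4 ATH1 arrays, 2 of flc-3 and 2 of the wild type. The deposited table holds 1 linear signal intensity per probe set and array, which the authors obtained with MAS5 per the submitters' processing notes, with no version or genome build given in the sources used here. On each array the mean after trimming 2% at both ends was 100.01, so the scaling was kept. Detection calls were not used here.

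Of 22810 probe sets, 64 controls were left out. Of the rest, 13513 had 1 gene symbol in the platform annotation, 503 had several and 8730 had none, and gene identifiers paired 13436 with a TAIR10.1 locus. Values were taken as log2(signal + 1), on which scale folds of dim probe sets are understated. The 13648 probe sets with a mean signal at or above the 40th percentile entered a linear model of genotype alone, fitted by limma 3.58.1 under R 4.3.3. Its eBayes step used a trend over intensity (residual df 2, prior df 7.54), and 2-sided p-values were adjusted by Benjamini-Hochberg over all of them. Exact permutation tests were 2-sided. The model was tested on data simulated for this comparison (5 runs, 13648 probe sets, 200 changed). It found 98.8% of the 2-fold and 100% of the 4-fold changes. At an adjusted p threshold of 0.05, 7.68% of its calls were false. The simulated noise was independent, normal and of the spread that the model itself had estimated. Effects shared by a whole array were thus absent from the simulation.

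The 3 genes and the gene lists were chosen with earlier results of these data known. Genes named are the 3 members, tested REVEILLE genes, the called, the 3 smallest p and a few core genes of the other 2 lists, and the 3 nearest patterns to each member. As alternatives, the fit was repeated after quantile, cyclic loess or median normalization, with a pseudocount of 16 or 0.1, without the filter or with it at the 60th percentile, with robust eBayes or no trend, with the replicate number as a block, and without each array in turn.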

Additional observations from a re-analysis of the deposited data

Results flagged for a closer look

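A control for 25S ribosomal RNA, outside every comparison, read 1426 in flc-3 replicate 1 and 45.7 in flc-3 replicate 2, against 135 and 47.6 in the wild-type arrays. It was marked as a signal outside the main measurement that lay above both wild-type arrays on 1 of the flc-3 arrays, the same array on which CCA1 and LHY had their lowest signals. Without that array the log2 difference of flc-3 minus wild type was 0.03 for CCA1, -0.12 for LHY and 0.09 for RVE6, and none passed in limma.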

How the results depend on the processing

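None of the 3 clock MYB genes passed in any of the 14 alternative fits, with adjusted p from 0.888 to 0.997 for CCA1, 0.314 to 0.993 for LHY and 0.458 to 0.997 for RVE6. Under the 10 alternatives that kept all arrays, log2 differences were -0.03 to -0.02 for CCA1, -0.25 to -0.21 for LHY and 0.09 to 0.10 for RVE6. With 1 array left out they were -0.07 to 0.03 for CCA1, -0.35 to -0.12 for LHY and -0.02 to 0.22 for RVE6. The sign turned for CCA1 without flc-3 replicate 1 (0.03) or wild type replicate 2 (0.02), and for RVE6 without wild type replicate 1 (-0.02). The 239 called probe sets became 121 with no filter, 780 with the replicate number as a block, and 146 to 374 with 1 array left out, the lowest without flc-3 replicate 1 and the highest without wild type replicate 1. The cause was not tested. Of the listed genes other than the members, only FIO1 passed in a fit that kept all arrays. It did so with the block, which made the count of called other clock genes 1 in place of 0. The REVEILLE and output lists had 0 called genes in every fit that kept all arrays. Without flc-3 replicate 1, and with the filter at the 60th percentile, FIO1 lay below the filter and was not tested. The filter at the 60th percentile also removed XCT, which left 2 of the 4 other clock genes tested. By their labels, the arrays share only a number in their titles. The 25S ribosomal RNA control was higher in replicate 1 than in replicate 2 of both genotypes. With 2 pairs, the replicate 1 minus replicate 2 differences correlated across probe sets at r = 0.09 between genotypes. The block leaves 1 residual degree of freedom. The number of arrays limits every value, and signals were not set against background, since detection calls were not used.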
